A study of Mus musculus with 24 samples.

Results

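ARID1B and TCF7L2 peaks of mouse cortex at E15.5 (E, embryonic day) were sorted by whether they overlapped a peak of the other transcriptional regulator (TR). On chromosomes 1 to 19 the ARID1B list held 70709 peaks and the TCF7L2 list 32579, together 103288 of the 315145 peaks in the 6 lists of the series (ARID1B, FOXP1, and TCF7L2, each at E15.5 and E18.5). An overlap of at least 1 base put a peak in the shared class. By this rule 42078 ARID1B peaks had no TCF7L2 peak, 3397 TCF7L2 peaks had no ARID1B peak, and 28631 ARID1B peaks and 29182 TCF7L2 peaks overlapped each other in 26967 merged loci.

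The chromatin came from bulk cortex of wild-type (WT) mice, kept on a CD1 background according to the methods, and no other genotype or treatment entered. For either TR, 2 ChIP and 2 input libraries were made, and 1 list was used for each TR and stage. Each list is attached to the record of the first replicate, and it was taken to be the list called on merged replicates that the methods describe. The labels name the second target TCF4, whereas the antibody in the methods is against TCF7L2. TCF4 is an older name of the TCF7L2 protein and also the symbol of another gene, Tcf4, which encodes a basic helix-loop-helix factor, and no reads of blocked or knockout chromatin were used here to check the antibodies. With 1 list per TR there is no replicate error, so values are given without tests, and the 95% Wilson intervals cover counting error only. In bulk tissue a site occupied in fewer cells and a site occupied less often per cell cannot be told apart.

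ARID1B is a subunit of the BAF (SWI/SNF) complex, an ATP-driven machine that moves and evicts nucleosomes, and its ARID domain binds DNA with little sequence preference. TCF7L2 is an HMG-box factor that binds a TCF/LEF motif, recruits β-catenin when Wnt signals arrive, and works with Groucho/TLE corepressors otherwise. In the embryonic cortex Wnt signaling acts on the progenitors of the ventricular zone, and heterozygous loss of ARID1B or TCF7L2 in people is associated with neurodevelopmental disorders.

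The sequences at the summits of the strongest exclusive peaks and of loci with opposite ranks are shown first, as examples of the DNA in which the motifs described later were counted. Each is the 200 bp window centered on the summit, read from the + strand of GRCm38 (mm10). Capitals mark matches on either strand to CAGATG (an E-box), ATCAAAG or TTCAAAG (TCF/LEF), GGGCGG (GC-box), TTGGCA (NFI half-site), or TAATTA (homeobox), and such matches may overlap. The 4 strongest distal ARID1B peaks without TCF7L2 lay 192108 to 590059 bp from the nearest transcription start site (TSS) of a protein-coding gene. The first was intergenic at chr5:83958232-83958431 (nearest Epha5), the second in an intron at chr16:40942470-40942669 (nearest Lsamp), the third intergenic at chr14:95688677-95688876 (nearest 4921530L21Rik), and the fourth intergenic at chr2:56539916-56540115 (nearest Nr4a2).
ARID1B distal near Epha5: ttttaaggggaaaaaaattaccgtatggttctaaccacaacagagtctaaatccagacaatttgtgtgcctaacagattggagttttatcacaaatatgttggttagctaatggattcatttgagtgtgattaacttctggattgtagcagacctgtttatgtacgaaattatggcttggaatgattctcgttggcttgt
ARID1B distal near Lsamp: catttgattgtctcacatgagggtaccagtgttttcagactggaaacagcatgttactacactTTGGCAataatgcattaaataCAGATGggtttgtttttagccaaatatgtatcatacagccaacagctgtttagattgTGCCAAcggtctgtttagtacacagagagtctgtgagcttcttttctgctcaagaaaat
ARID1B distal near 4921530L21Rik: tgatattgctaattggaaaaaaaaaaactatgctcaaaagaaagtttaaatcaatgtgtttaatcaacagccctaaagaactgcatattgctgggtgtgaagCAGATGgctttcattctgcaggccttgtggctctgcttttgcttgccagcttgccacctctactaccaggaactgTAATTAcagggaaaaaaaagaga
ARID1B distal near Nr4a2: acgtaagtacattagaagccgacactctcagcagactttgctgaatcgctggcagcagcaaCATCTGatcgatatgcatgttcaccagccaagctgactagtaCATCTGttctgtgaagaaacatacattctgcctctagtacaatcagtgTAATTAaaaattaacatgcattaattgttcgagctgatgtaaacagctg
The windows near Lsamp and 4921530L21Rik each held 1 E-box and that near Nr4a2 held 2, with NFI half-sites near Lsamp and a homeobox core near 4921530L21Rik and near Nr4a2, while the window near Epha5, at the strongest peak of the class, held none of the motifs.

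Among TCF7L2 peaks without ARID1B, windows are shown for the strongest at promoters, Tcf7 (chr11:52283325-52283524) and Gnas (chr2:174297459-174297658), and for the first and the third strongest away from promoters, in coding exons of Esr1 (chr10:4997818-4998017) and Nr4a2 (chr2:57111753-57111952). The peak between these in strength, beside Foxl2, lies in an untranslated exon and its window is not printed.
TCF7L2 promoter of Tcf7: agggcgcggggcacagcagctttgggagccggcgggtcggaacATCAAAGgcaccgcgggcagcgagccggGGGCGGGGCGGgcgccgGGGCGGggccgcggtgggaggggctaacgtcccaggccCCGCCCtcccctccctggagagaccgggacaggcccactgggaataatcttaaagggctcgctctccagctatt
TCF7L2 promoter of Gnas: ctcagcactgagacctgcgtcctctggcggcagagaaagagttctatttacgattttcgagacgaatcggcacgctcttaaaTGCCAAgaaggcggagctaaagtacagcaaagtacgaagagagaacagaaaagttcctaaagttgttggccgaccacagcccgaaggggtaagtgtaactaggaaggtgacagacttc
TCF7L2 coding exon of Esr1: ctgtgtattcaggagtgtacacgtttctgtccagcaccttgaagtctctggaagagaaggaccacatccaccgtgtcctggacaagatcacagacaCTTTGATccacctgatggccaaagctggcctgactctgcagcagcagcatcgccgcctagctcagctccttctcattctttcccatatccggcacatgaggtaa
TCF7L2 coding exon of Nr4a2: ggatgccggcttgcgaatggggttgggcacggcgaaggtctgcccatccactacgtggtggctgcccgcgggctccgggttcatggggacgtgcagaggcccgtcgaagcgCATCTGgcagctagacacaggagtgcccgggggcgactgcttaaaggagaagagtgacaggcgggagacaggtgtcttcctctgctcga
The windows at Tcf7 and Esr1 each held 1 TCF/LEF match, and that at Tcf7 also held 4 GC-box matches. The window at Gnas held 1 NFI half-site and that at Nr4a2 held 1 E-box.

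At shared loci, Fgfrl1 and Herc3 were the promoters at which the ranks of the TRs differed most, in opposite directions (chr5:108693949-108694148, centered on the TCF7L2 summit, and chr6:58899163-58899362, centered on the ARID1B summit). Sp5 is added because its TCF7L2 summit window held 3 TCF/LEF matches. As that window lies in the transcribed leader, only each match with 10 bases on each side is printed, at chr2:70474963-70474989, chr2:70475002-70475028, and chr2:70475027-70475053.
Shared promoter of Fgfrl1: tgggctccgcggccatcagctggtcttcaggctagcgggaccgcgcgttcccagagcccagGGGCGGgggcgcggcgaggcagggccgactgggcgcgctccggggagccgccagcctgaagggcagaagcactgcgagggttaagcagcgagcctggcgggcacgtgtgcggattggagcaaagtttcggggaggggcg
Shared promoter of Herc3: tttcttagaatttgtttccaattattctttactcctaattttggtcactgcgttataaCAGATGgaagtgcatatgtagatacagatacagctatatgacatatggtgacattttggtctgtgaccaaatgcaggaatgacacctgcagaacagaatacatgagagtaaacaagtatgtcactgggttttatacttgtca
Sp5 match 1: gctttgtggaTTCAAAGgatttgcttt
Sp5 match 2: agccgctattCTTTGATgattgggtag
Sp5 match 3: agcggcaaacTTCAAAGccataaatct

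The overlap was uneven. TCF7L2 peaks lay on ARID1B peaks in 89.6% of cases (29182 of 32579, 95% interval 89.2 to 89.9), and ARID1B peaks lay on TCF7L2 peaks in 40.5% (28631 of 70709, 40.1 to 40.9). Of the shared loci, 23798 held 1 peak of each TR, the summits of the TRs were a median of 79 bp apart, and 58.3% were within 100 bp. The ARID1B list was the longer and its smaller library the deeper, at 80.7 M reads against 60.1 M for TCF7L2 as recovered from the tie between fold enrichment and p-value, and the part of depth in the counts was not tested. With the ARID1B list cut to its peaks of lowest p, as many as the TCF7L2 list holds, 13011 ARID1B peaks were without TCF7L2 and 11455 TCF7L2 peaks without ARID1B.

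Overlap rose with peak strength in both lists. From the decile of ARID1B peaks with the highest p-values to that with the lowest, the share with TCF7L2 went from 15.3% (14.5 to 16.2) to 75.7% (74.7 to 76.7). Among proximal ARID1B peaks, those touching the 2000 bp upstream of a TSS, it went from 35% to 97.3%, and among distal peaks from 11.2% to 66.9%. For TCF7L2 peaks the share with ARID1B went from 69.3% (67.7 to 70.9) to 99.9% (99.8 to 100), and in its weakest decile proximal peaks were at 59.4% (56.0 to 62.8) and distal peaks at 72.5% (70.7 to 74.3).

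**Figure D1:**
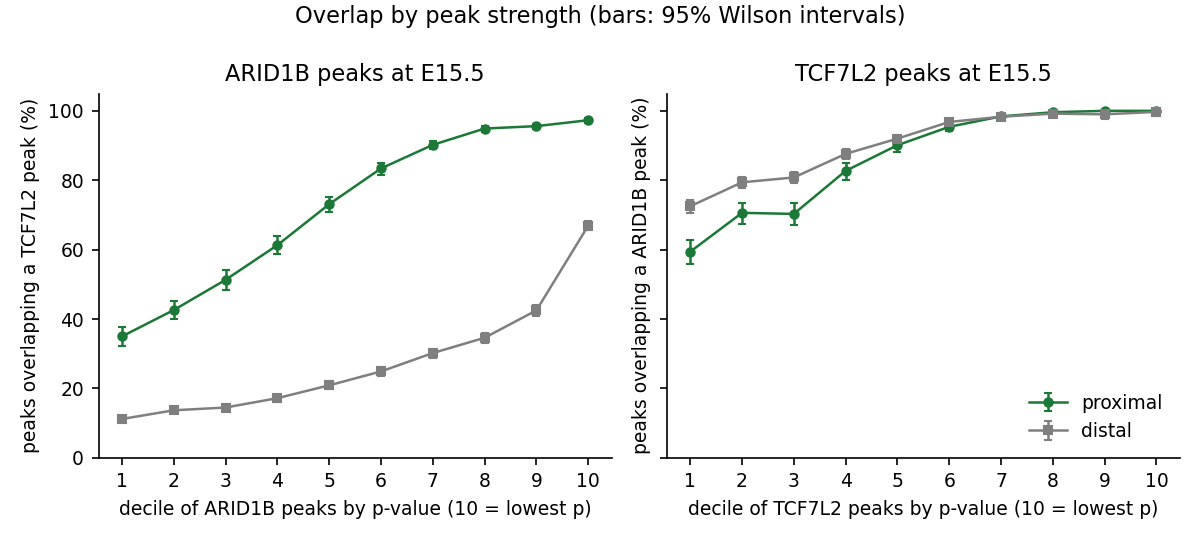
Share of E15.5 peaks overlapping a peak of the other TR (y axis, percent, with 95% Wilson intervals) by decile of the peak's own p-value (x axis, 10 the lowest p), for ARID1B peaks on the left and TCF7L2 peaks on the right, proximal in green and distal in gray. Distal ARID1B peaks stay lowest, from 11.2% to 66.9%, while TCF7L2 peaks of either kind reach at least 99.7% in the top decile.

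Peaks of the exclusive classes were weaker and narrower than shared peaks. Width is not independent of the rule, since a wider peak has more bases that can overlap. ARID1B peaks without TCF7L2 had a median fold enrichment over input of 3.48, against 4.81 with TCF7L2, and a median width of 360 bp against 794 bp. TCF7L2 peaks without ARID1B had a median fold enrichment of 3.37, against 4.52 with ARID1B, and a median width of 274 bp against 571 bp. The ARID1B class still held strong peaks, up to 18-fold, and 9950 of its members (23.6%) had a −log10 p of at least 15. In the TCF7L2 class the highest value was 8.49-fold, and 64 of 3397 members (1.88%) reached that level. At the edge of the rule the values did not separate: the 262 ARID1B peaks overlapping by 1 to 50 bases and the 271 missing by at most 50 bp both had a median of 2.95-fold, and the 242 and 198 TCF7L2 peaks of the same kinds had medians of 3.37 and 3.27.

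Distances to the other TR were measured to lists of unequal length, and a longer list by itself shortens them, so they are given as a description. The median ARID1B peak without TCF7L2 was 23839.5 bp from the nearest TCF7L2 peak, 10.7% (10.4 to 11) lay within 1000 bp of one, and 19.3% (18.9 to 19.7) lay at least 100 kb away. The median TCF7L2 peak without ARID1B was 792 bp from an ARID1B peak, 53.3% (51.6 to 55) lay within 1000 bp, and 26 peaks (0.765%) lay at least 100 kb away. By chromosome the share of ARID1B peaks with TCF7L2 ranged from 34.2% to 50.1% and that of TCF7L2 peaks with ARID1B from 87.3% to 92.7%.

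The classes differed in genomic position. Proximal peaks made up 9.37% (9.09 to 9.65) of ARID1B peaks without TCF7L2, 35.8% (34.2 to 37.5) of TCF7L2 peaks without ARID1B, and 53.2% of shared loci (14357 of 26967). With both lists cut at a −log10 p of 15 these shares were 11.1%, 73.8%, and 78.3%. That cut also puts a peak in an exclusive class when its partner peak is weaker than the cut. Of the 1872 TCF7L2 peaks so classed, 64 had no ARID1B peak in the full list, and 51.6% (39.6 to 63.4) of these 64 were proximal. Of the 16577 ARID1B peaks so classed, 9950 had no TCF7L2 peak in the full list, and 5.45% (5.02 to 5.91) of these were proximal. In the full lists the median distance from summit to nearest TSS was 15804 bp for ARID1B peaks without TCF7L2. It was 1359 bp for TCF7L2 peaks without ARID1B and 626 bp for ARID1B peaks with TCF7L2. Summits of ARID1B peaks without TCF7L2 were in introns in 48.9% of cases (48.4 to 49.4) and intergenic in 38.3% (37.8 to 38.8), beside 39.1% and 50.3% of positions spaced evenly along the genome. Their share in coding exons, 1.2% (1.10 to 1.31), was near the 1.29% of the evenly spaced positions. By summit their share in promoters was 7.97% (7.71 to 8.23), not far above the 6.37% (6.15 to 6.59) of those positions.

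TCF7L2 peaks without ARID1B stood out in coding exons, which held 8.42% of their summits (286 of 3397, 7.53 to 9.40). For TCF7L2 peaks with ARID1B this share was 4.31% (4.08 to 4.55), and for ARID1B peaks with TCF7L2 4.45% (4.22 to 4.69). Their share in promoters, 31.3%, lay below the 40.4% of TCF7L2 peaks with ARID1B, and their share in untranslated exons, 6.03%, lay beside 6.01%.

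**Figure D2:**
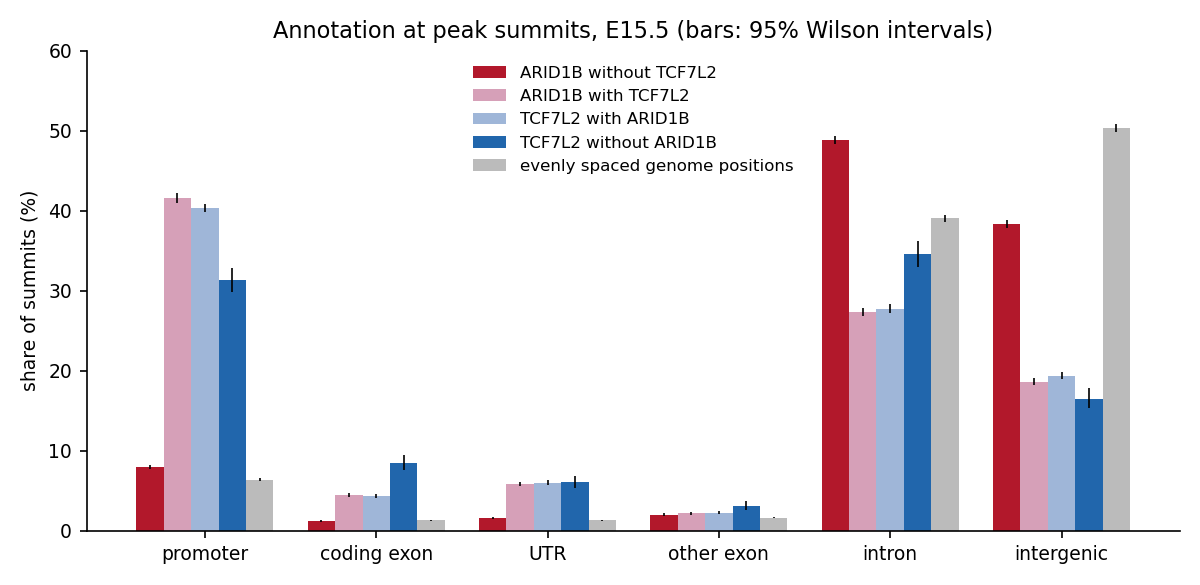
Share of peak summits (y axis, percent, with 95% Wilson intervals) in 6 annotation classes for the 4 peak classes and for evenly spaced genome positions. ARID1B peaks without TCF7L2 (dark red) are at 48.9% in introns and 7.97% in promoters, and TCF7L2 peaks without ARID1B (dark blue) have the highest coding exon share, 8.42%.

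Lists that the rule did not use were then overlapped with the classes. At E18.5, ARID1B had a peak at 68.4% (67.9 to 68.8) of E15.5 ARID1B peaks without TCF7L2 and TCF7L2 at 25.5% (25.1 to 25.9), and 49.0% kept a peak of ARID1B alone. At E15.5 TCF7L2 peaks without ARID1B, TCF7L2 had an E18.5 peak at 79.6% (78.2 to 80.9) and ARID1B at 25.7% (24.2 to 27.2), and 56.7% kept a peak of TCF7L2 alone. Where both TRs met at E15.5, ARID1B was present at E18.5 at 92.7% of the ARID1B peaks and TCF7L2 at 97.2%. Thus most members of each exclusive class lacked the other TR at the later stage as well, in 74.5% (ARID1B) and 74.3% (TCF7L2) of cases.

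Strength again divided the ARID1B class. Its 9950 members with a −log10 p of at least 15 had an ARID1B peak at E18.5 in 98.9% of cases (98.7 to 99.1) and a TCF7L2 peak in 33.0% (32.1 to 34.0). The 64 TCF7L2 members at that level had a TCF7L2 peak at E18.5 in 98.4% and an ARID1B peak in 42.2%. The E18.5 TCF7L2 list is longer than that of E15.5, at 52595 against 32579 peaks on these chromosomes, and its part in these shares was not tested. With both E15.5 lists cut at a −log10 p of 15, TCF7L2 had an E18.5 peak at 58.3% of the ARID1B class and ARID1B at 94.8% of the TCF7L2 class. The classes so cut include peaks with a weaker partner at E15.5, and 64 of the 1872 TCF7L2 members lacked any ARID1B peak there. With the ARID1B list cut to the size of the TCF7L2 list the shares were 31.1% and 63.0%. Most members of either class thus had the other TR at E18.5 under the first cut, as did most of the TCF7L2 class under the second.

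FOXP1, a forkhead factor of cortical neurons, had an E15.5 peak at 97.4% of ARID1B peaks with TCF7L2. It had one at 50.3% (49.9 to 50.8) of ARID1B peaks without TCF7L2 and at 62.0% (60.4 to 63.6) of TCF7L2 peaks without ARID1B. With the shorter FOXP1 list of E18.5 these shares were 65.4%, 7.3%, and 13.2%. Among members with a −log10 p of at least 15, FOXP1 had an E15.5 peak at 99.6% (99.5 to 99.6) of ARID1B peaks with TCF7L2. At that level it had one at 77.7% (76.8 to 78.5) of ARID1B peaks without TCF7L2 and at 71.9% (59.9 to 81.4) of TCF7L2 peaks without ARID1B. The shares of the exclusive classes thus moved with peak strength, and their order turned.

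**Figure D3:**
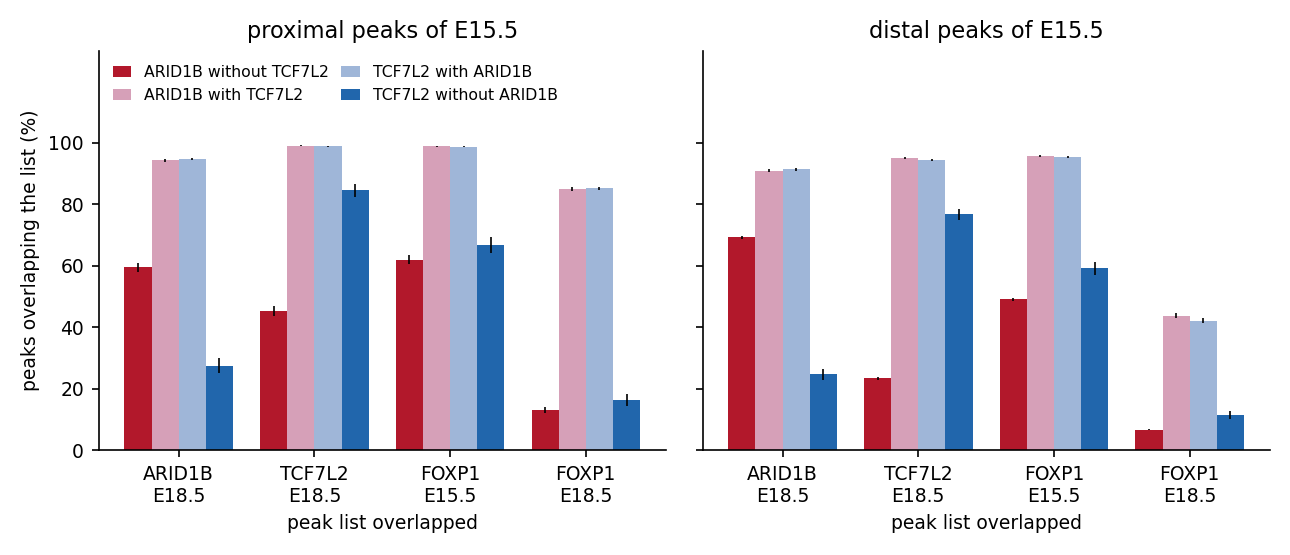
Share of E15.5 peaks in each class (y axis, percent, with 95% Wilson intervals) that overlap a peak of 4 lists not used for the classes, for proximal peaks on the left and distal peaks on the right. Shared peaks (pale) are near or above 90% for the first 3 lists, whereas distal ARID1B peaks without TCF7L2 (dark red) overlap E18.5 TCF7L2 in 23.4% and TCF7L2 peaks without ARID1B (dark blue) overlap E18.5 ARID1B in 24.7% of cases.

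At the level of genes, most promoters held both TRs. Promoters of 11965 of 20780 protein-coding genes (57.6%) had a peak of both, 686 (3.30%) of ARID1B only, 322 (1.55%) of TCF7L2 only, and 7807 (37.6%) of neither. These shares are the background for the gene lists below. The strongest promoter peak had a median of 5.35-fold for ARID1B and 6.50-fold for TCF7L2 at genes with both, 3.39-fold at genes with ARID1B only, and 3.68-fold at genes with TCF7L2 only. The order of the exclusive groups depended on the threshold: 833 genes had ARID1B only and 1116 TCF7L2 only with both lists cut at a −log10 p of 15, and 154 and 2113 with the ARID1B list cut to the size of the TCF7L2 list. At E18.5, 97.5% of the genes with both kept both. Genes with ARID1B only had both at E18.5 in 42.9% of cases (39.2 to 46.6) ARID1B only in 20% (17.2 to 23.1), TCF7L2 only in 21.1% (18.2 to 24.3), and neither in 16.0% (13.5 to 19). Genes with TCF7L2 only kept that state in 55.6% (50.1 to 60.9) and had both in 33.2% (28.3 to 38.5).

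Wnt feedback and target genes held both TRs at 18 of 20 promoters. The exceptions were Rnf43, a ubiquitin ligase that removes Wnt receptors, which had TCF7L2 only at 3.37-fold, and Dkk1, a secreted Wnt inhibitor, which had neither (Dkk1 was singled out after its value was seen). Axin2, the negative feedback scaffold of the pathway, had ARID1B at 6.06-fold and TCF7L2 at 32.2-fold. Znrf3, the partner ligase of Rnf43, had 5.26-fold and 14.0-fold in the same order. Sp5, a zinc finger repressor of Wnt target genes, had 3.48-fold and 10.5-fold. At Myc and Ccnd1, which drive growth and the cell cycle, ARID1B was at 5.97-fold and 3.57-fold and TCF7L2 at 7.34-fold at both. At Tcf7, a TCF/LEF factor itself, the 8.49-fold TCF7L2 peak was the strongest proximal member of its class, yet an ARID1B peak lay 66 bp away, and the gene counted as having both because its promoter windows also held ARID1B, at up to 3.13-fold.

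Genes that carry the Wnt signal held both TRs at 29 of 30 promoters. The exception was Fzd6, a Wnt receptor, with TCF7L2 only at 4.10-fold. Ctnnb1, which encodes β-catenin, had 9.97-fold ARID1B and 13.8-fold TCF7L2. Pygo2, a coactivator of β-catenin, had 5.88-fold and 14.6-fold, and Tle3, a corepressor of TCF factors, had 15.3-fold and 10.6-fold.

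BAF subunit genes held both at 29 of 30 promoters, and Phf10, singled out after its value was seen, held neither. Arid1b itself had 5.70-fold ARID1B and 10.5-fold TCF7L2. Its paralog Arid1a had 11.2-fold and 11-fold, and Ss18, a subunit found in the canonical complex, had 6.86-fold and 13.9-fold. Tcf7l2 had 4.46-fold ARID1B and 6.50-fold TCF7L2, and Foxp1 had 7.39-fold and 9.84-fold.

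Cortical genes also held both almost throughout. Progenitor genes did so at 21 of 22 promoters, Tnc, an extracellular matrix gene of radial glia, having ARID1B only at 3.84-fold. Hes5, a Notch target that maintains neural progenitors, had 4.64-fold ARID1B and 9.84-fold TCF7L2. Upper-layer neuron genes held both at 14 of 14 and deep-layer and subplate genes at 14 of 15. Of the synaptic and pan-neuronal genes, 27 of 30 held both and 3 held ARID1B only, among them Scn3a, a sodium channel, at 3.04-fold, and Nrxn3, a presynaptic adhesion protein, at 3.30-fold. By E18.5 Nrxn3 had both and Scn3a had neither.

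Lists of other cell types and controls set the range. The cortical markers Emx1, Tbr1, Neurod2, and Neurod6 held both TRs at 4 of 4 promoters. Interneuron genes held both at 14 of 17 and thalamic genes at 13 of 14. Endothelial genes did so at 3 of 12 (Sox17 with TCF7L2 only), oligodendrocyte lineage genes at 4 of 9 (Olig1 with TCF7L2 only), microglial genes at 1 of 12, and erythroid genes at 1 of 9. Ribosomal protein genes held both at 69 of 72, and olfactory receptor genes at 1 of 1086, with 4 of ARID1B only.

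The genes nearest to the most distal exclusive peaks were listed for each TR. Tcf4 (57 peaks), Rbfox1 (55), Celf2 (42), Ptprd (39), Tenm2 (39), and Tox3 (36) were nearest to the most ARID1B peaks without TCF7L2. Rbfox1 and Celf2 encode neuronal RNA-binding proteins, Ptprd and Tenm2 synaptic adhesion proteins, and Tox3 a chromatin factor. All 6 held both TRs at the promoter, and they had 0 to 3 distal TCF7L2 peaks without ARID1B each. The 264 protein-coding genes with at least 10 such peaks had a median span of 332.4 kb, against 17.6 kb for all 20780, and the part of gene span in these counts was not tested.

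Distal TCF7L2 peaks without ARID1B were fewer, 2180 against 38136 for the ARID1B class, so their counts per gene were lower. Dnah8 (9 peaks), Nfix (9), Uncx (9), Cux2 (8), Gm44491 (8), and Pax3 (8) led. Nfix, Uncx, Cux2, and Pax3 encode DNA-binding factors of development, Cux2 marking upper-layer neurons, and Dnah8 encodes an axonemal dynein. The 21 protein-coding genes with at least 5 such peaks had a median span of 19.7 kb, close to that of all genes. Distal ARID1B peaks without TCF7L2 numbered 24 at Dnah8, 15 at Cux2, 3 each at Nfix and Uncx, and 0 at Pax3 and Gm44491, so some of these genes held exclusive peaks of both TRs. Foxc1, chosen after its values were seen, had 7 distal peaks of TCF7L2 alone and 0 of any other class, and its promoter held TCF7L2 only.

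The strongest exclusive peaks were checked in the other lists. Away from promoters, the ARID1B peak nearest to Epha5 rose to 18-fold, that near Lsamp to 15.9-fold, that near 4921530L21Rik to 15.4-fold, and that near Nr4a2, an orphan nuclear receptor of subplate neurons, to 15.2-fold. Those nearest to Rps29 and Rgs21 were at 15.1-fold and 14.7-fold. At promoters, Tex9 led at 11.6-fold, followed by the noncoding genes Gm13602, Gm48756, Gm23118, Gm28747, and Gm46329 at 10.5 to 11.3-fold. All 12 of these peaks overlapped ARID1B at E18.5 and FOXP1 at E15.5, and 10 of 12 overlapped TCF7L2 at E18.5, the exceptions being those near Rgs21 and Gm13602. In the class as a whole TCF7L2 was present at E18.5 in 25.5%, and among members with a −log10 p of at least 15 in 33.0%. Of the next 12 peaks, ranked 7 to 12 among proximal and among distal members, 7 overlapped TCF7L2 at E18.5.

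Among TCF7L2 peaks without ARID1B, Tcf7 was followed at promoters by Gnas, the stimulatory G protein α subunit, at 6.19-fold, Peli1 and Foxc2 at 5.98-fold, and Gm10837 and AC131323.2 at 5.88-fold. Those at Tcf7, Peli1, and Gm10837 missed an ARID1B peak by 66, 157, and 128 bp, whereas those at Gnas and Foxc2 were 2228 and 2096 bp from one. Away from promoters, the peaks in Esr1 (8.49-fold), beside Foxl2 (7.44-fold), in Nr4a2 (7.02-fold), near Pax5 (7.02-fold), in Khdc3 (6.92-fold), and near Arhgap40 (6.61-fold) led. All 12 recurred in the TCF7L2 list of E18.5, and 6 of 12 overlapped an ARID1B peak there.

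A pair of genes with TCF7L2 peaks in coding exons was examined after their values were seen. In Esr1, the estrogen receptor gene, both TCF7L2 peaks of E15.5 had their summit in a coding exon (5.98-fold and 8.49-fold) and neither overlapped ARID1B. At E18.5 the summit of its single TCF7L2 peak was outside coding exons and that of its single ARID1B peak was inside one. In Pogz, a chromatin gene, 4 of 6 TCF7L2 summits were in coding exons at E15.5 and 4 of 6 at E18.5, whereas FOXP1 had 0 of 2 at either stage and ARID1B 1 of 3 and 0 of 3. The source of these exon peaks was not tested.

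Rank differences were taken at the 26967 shared loci, where each TR was ranked by its lowest p-value and expressed as a percentile. Because both percentiles were taken over the same loci, the mean difference over all of them is fixed at 0, and a mean lean of proximal loci toward one TR fixes a mean lean of distal loci toward the other. Over all loci the median difference (TCF7L2 minus ARID1B) was 5.45 percentile points, and TCF7L2 ranked higher in 58.0%. At 14357 proximal loci TCF7L2 ranked higher in 79.8%, with a median difference of 15.4 points and quartiles of 3.30 and 27.2. At 12610 distal loci it ranked higher in 33.1%, with a median of -13.3 and quartiles of -38.4 and 7.12. A gap of at least 50 points in favor of ARID1B occurred at 2028 distal and 193 proximal loci, and one in favor of TCF7L2 at 132 distal and 284 proximal loci. Across loci, Spearman's rank correlation was 0.711 over proximal and 0.393 over distal loci, given as a description because the loci share libraries, width, and base composition.

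**Figure D4:**
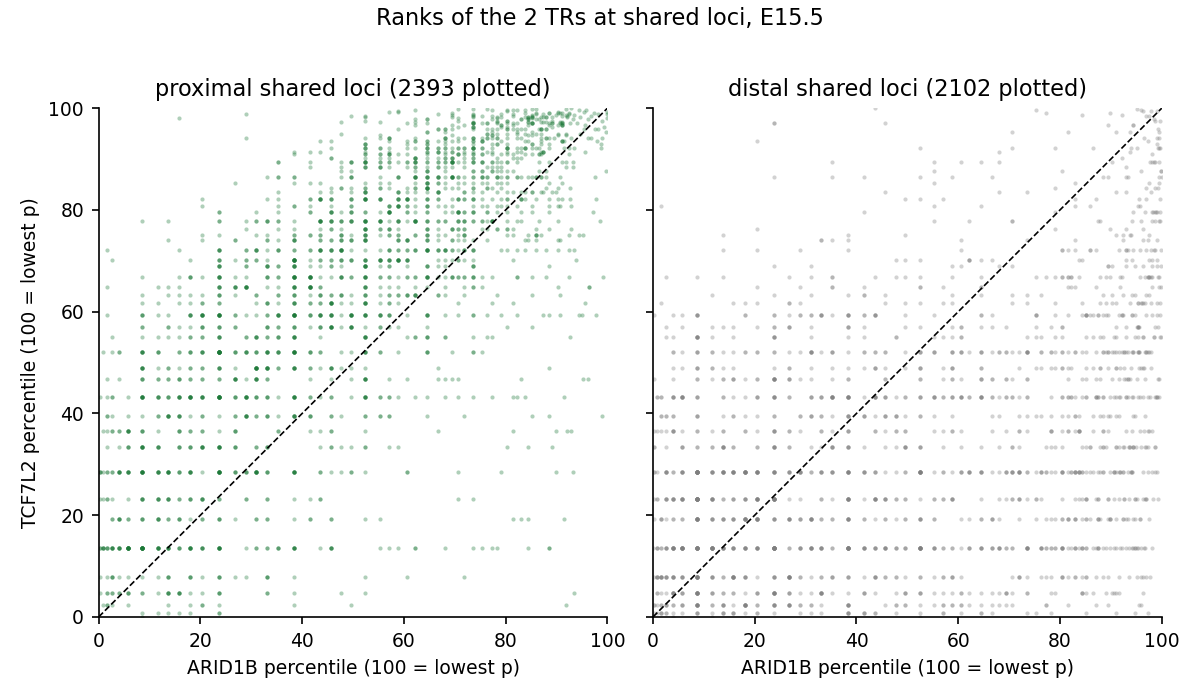
TCF7L2 percentile (y axis) against ARID1B percentile (x axis) by p-value at shared loci, proximal on the left and distal on the right, with every 6th locus drawn (2393 and 2102) and equal ranks on the dashed line. Proximal loci lie mostly above the line (79.8% of all 14357), and distal loci mostly below it, with a band of high ARID1B and low TCF7L2 percentiles.

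Among promoters, the largest differences toward TCF7L2 were at Fgfrl1 (90.2 points), Tlx2 (88.9), Pogz (84.2), Sp5 (82.2), Nr3c1 (77.8), Sp8 (76.2), Barhl1 (75.5), and Cdk6 (72.3). Tlx2, Sp5, Sp8, and Barhl1 encode developmental transcription factors, Nr3c1 the glucocorticoid receptor, Fgfrl1 an FGF receptor-like protein, and Cdk6 a cell cycle kinase. At Fgfrl1 ARID1B stood at 3.04-fold and TCF7L2 at 9.42-fold, and at Tlx2 at 3.13-fold and 10.2-fold. The locus at Pogz was one of its exon peaks.

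The largest differences toward ARID1B were at Herc3 (-93.3 points), Fhad1 (-86.1), Dock6 (-84.4), Commd10 (-83.1), Myo1h (-82.5), Sln (-79.8), Msrb3 (-78.3), and Angptl4 (-77.1). Herc3 encodes a ubiquitin ligase, Dock6 a Rac exchange factor, Myo1h a myosin, and Angptl4 a secreted regulator of lipoprotein lipase. At Herc3 ARID1B stood at 13.0-fold and TCF7L2 at 3.16-fold, and at Myo1h at 11-fold and 3.47-fold.

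Over all 12080 protein-coding promoters with a shared locus the median difference was 16.5 points (quartiles 5.45 and 27.7). Against it, the median was 34.6 over 18 Wnt feedback and target genes, with 82.2 at Sp5, 66.4 at Ccnd1, 42.7 at Znrf3, and 29.3 at Axin2. Of these 18 genes 4 lay below the median of all promoters, with 15 at Myc, 11.6 at Bambi, 9.40 at Sfrp2, and 2.78 at Wif1 (the last 3 named after their values were seen). For Axin2 the difference is bounded, since both TRs ranked high there. The median was 32.6 over 13 thalamic genes, 23.7 over 4 oligodendrocyte lineage genes, 21.7 over 21 progenitor genes, 18 over 14 interneuron genes, 16.7 over 29 BAF genes, 15.8 over 69 ribosomal protein genes, and 14.1 over 2 endothelial genes. It was 13.1 over 14 deep-layer genes, 11.4 over 29 genes that carry the Wnt signal, 8.38 over 14 upper-layer genes, and 6.24 over 27 synaptic genes. The single microglial, erythroid, and olfactory receptor genes stood at -21.5, -21.2, and -67.4. Values within a list were wide: among upper-layer genes Bhlhe22, a bHLH repressor, stood at -25.5 and Mef2c, a MADS-box activator, at 35.3, and among synaptic genes Dlg4, a postsynaptic scaffold, stood at -10 and Tubb3, a neuronal tubulin, at 31.6. Bicral, a BAF member chosen after its value was seen, stood at -75.0.

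Short motifs were counted in the 200 bp around each summit, on both strands. CAGATG, the E-box form bound by proneural and NeuroD-type bHLH factors, was in 35.6% (35.1 to 36.1) of distal ARID1B peaks without TCF7L2 and in 31.1% (30.4 to 31.9) of those with it. It was in 27.9% (27.1 to 28.6) of distal TCF7L2 peaks with ARID1B and in 13.3% (12 to 14.8) of those without. The same motif was in 15.1% of evenly spaced genome windows and in 11% of windows upstream of protein-coding TSSs. The other 3 distal classes were thus above the level of genome windows, and distal TCF7L2 peaks without ARID1B were not. In 100 bp windows the latter were at 7.25% (6.24 to 8.42), beside 7.68% (7.45 to 7.93) of genome windows.

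The E-box was centered on the summits and followed strength. In the 50 bp bin before the summit, ARID1B peaks without TCF7L2 held 2.65 matches per kb, against 0.804 and 0.763 in the outermost bins, and TCF7L2 peaks without ARID1B held 0.762, against 0.808 and 0.698. From the weakest to the strongest decile of distal ARID1B peaks the share with the motif went from 23.2% (22.1 to 24.4) to 54.1% (52.8 to 55.5). For distal TCF7L2 peaks it went from 22.4% to 34.5%. The share also differed by rank difference, which contains the ARID1B p-value and so is not separate from the trend with strength. Loci of like ARID1B strength were not compared. At shared distal loci the motif was in 49.7% (47.7 to 51.6) of ARID1B summit windows in the quintile with the most ARID1B-leaning ranks. It was in 14.6% (13.3 to 16.0) of those in the quintile with the most TCF7L2-leaning ranks. At shared proximal loci the same quintiles were at 21.6% and 6.83%.

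**Figure D5:**
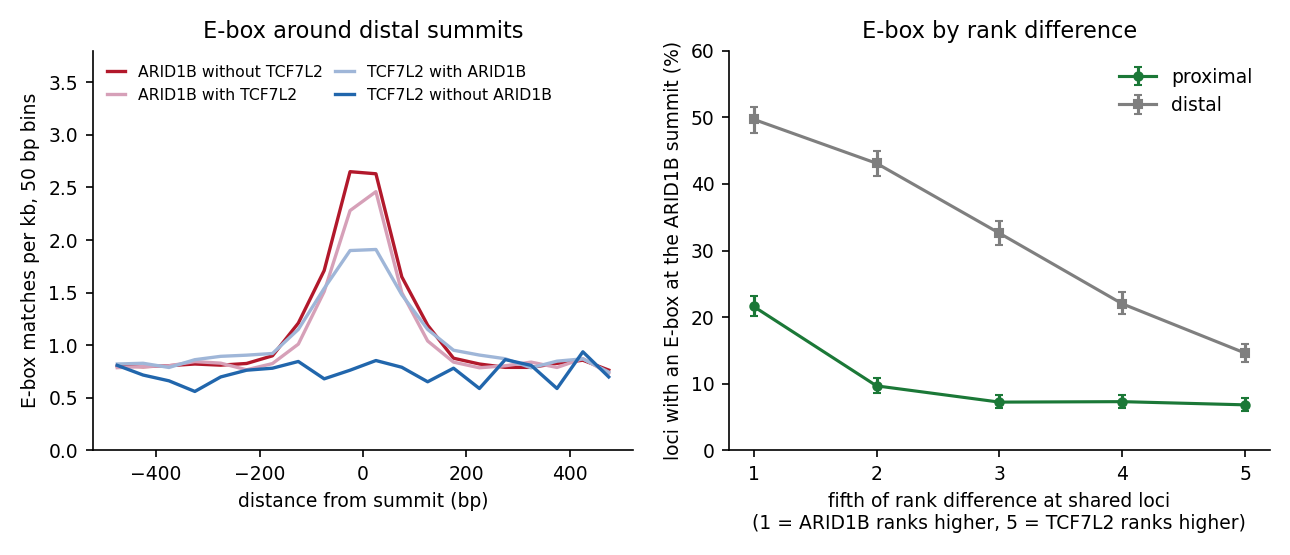
Left, matches to CAGATG per kb (y axis) in 50 bp bins by distance from the summit (x axis, bp) for distal peaks of the 4 classes. Right, share of shared loci with a match at the ARID1B summit (y axis, percent, with 95% Wilson intervals) by quintile of rank difference. The 3 classes that contain ARID1B peak at the summit at 1.90 to 2.65 matches per kb, the class without ARID1B stays flat, and the distal share drops from 49.7% to 14.6%.

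Base composition moved with these shares, so the E-box was also counted within a band of GC content, an alternative chosen after seeing the data. The median GC content was 45.5% at distal ARID1B peaks without TCF7L2, 52.5% with it, and 55% at distal TCF7L2 peaks without ARID1B, beside 42% for genome windows. Among windows of 45 to 55% GC, the E-box was in 35.8%, 36.2%, and 14.6% of these classes, respectively, and in 18% of genome windows. Within the same band the outer quintiles of rank difference were at 51.1% and 17.7%.

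TCF/LEF matches in the distal classes as drawn from the full lists were no more frequent than in genome windows. This motif was not counted by GC content, and the genome windows had a lower median GC content than every distal class. ATCAAAG or TTCAAAG was in 7.16% (6.15 to 8.32) of distal TCF7L2 peaks without ARID1B, 7.31% (6.90 to 7.75) of those with ARID1B, 7.59% (7.33 to 7.86) of distal ARID1B peaks without TCF7L2, and 6.75% (6.34 to 7.19) of those with TCF7L2, all below the 9.26% of genome windows and above the 5.20% of promoter windows. In the strongest decile of distal TCF7L2 peaks the share was 8.30% (7.06 to 9.73), against 7.78% (6.59 to 9.17) in the weakest. In 100 bp windows the shares, in the same order, were 3.81% (3.08 to 4.70), 3.93% (3.63 to 4.26), 3.40% (3.22 to 3.59), and 3.04% (2.76 to 3.34), beside 4.64% of genome windows, and the interval of TCF7L2 peaks with ARID1B lay above those of both ARID1B classes. With both lists cut at a −log10 p of 15 the motif was in 11.2% (8.74 to 14.4) of 489 distal windows of the TCF7L2 class. It was in 7.27% (6.86 to 7.70) of those of the ARID1B class. Of the 489 windows, 31 had no ARID1B peak in the full list, and 9.68% (3.35 to 24.9) of these 31 held the motif. At promoters it was in 6.50% (5.25 to 8.03) of TCF7L2 peaks without ARID1B, 3.01% (2.75 to 3.30) of those with ARID1B, and 6.70% (5.96 to 7.52) of ARID1B peaks without TCF7L2. In the 50 bp bins before and after the summit, distal TCF7L2 peaks without ARID1B held 0.450 and 0.340 matches per kb, against 0.303 and 0.294 in the outermost bins. Bins away from the summit ranged from 0.220 to 0.459 in that class. TCF7L2 peaks with ARID1B held 0.439 and 0.418, against 0.400 and 0.378. ARID1B peaks without TCF7L2 held 0.364 and 0.382, against 0.467 and 0.404. Those with TCF7L2 held 0.303 and 0.375, against 0.437 and 0.403. These are exact letters of a short core, so a diverged site was not counted.

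Several other motifs were also more frequent in the distal ARID1B class. The NFI half-site TTGGCA was in 24.7% of distal ARID1B peaks without TCF7L2 and in 11.3% of distal TCF7L2 peaks without ARID1B, beside 9.78% of genome windows or, within the same GC band, in 23.9% and 13.7%, beside 10.3%. The homeobox core TAATTA was in 11.7% and 2.80%, beside 6.98%. The second E-box form, CAGCTG, was in 20.3% and 13.7%, beside 7.60%. TTGGCA and CAGCTG were added after seeing the data, and of all the motifs only the first E-box form, the NFI half-site, and the GC-box were counted by GC content. FOX cores (TGTTTAC) were in 4.37% and 1.88%, beside 3.04%. CCAAT boxes (GCCAAT) were in 10.3% and 5.60%, beside 6.04%. In the other direction, the GC-box GGGCGG was in 3.63% of the ARID1B class and 16.7% of the TCF7L2 class, beside 1.92% of genome windows and 34.0% of promoter windows. Within the band of 45 to 55% GC the GC-box shares were 4.01% (3.73 to 4.32) and 7.74% (6.16 to 9.70), beside 2.74% of genome windows. The gap was thus smaller at like base composition. With both lists cut at a −log10 p of 15 the shares were 3.77% (3.47 to 4.09) and 35.2% (31.1 to 39.5). The median GC content was then 45.5% and 63%. The ETS core CCGGAAG was in 0.787% and 2.2%, beside 0.580%. The CTCF consensus, with up to 3 mismatches, was in 0.441% and 1.19%, beside 0.0271%. With both lists cut at a −log10 p of 15 the CTCF shares were 0.197% (0.137 to 0.283) and 0.204% (0.0361 to 1.15). The latter share rests on 1 match in 489 windows. With peaks less than 1000 bp from the other TR left out instead, the CTCF shares were 0.465% (0.399 to 0.542) and 2.40% (1.64 to 3.49). The CTCF gap between the classes thus depended on the setting. The RFX3 consensus, with up to 2 mismatches, was in 0.349% (0.294 to 0.413) and 0.138% (0.0469 to 0.404), beside 0.0313%, with intervals that overlapped.

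At promoters the exclusive classes differed in the same direction. Proximal ARID1B peaks without TCF7L2 had an E-box in 26.3% (25 to 27.7) and a GC-box in 10.4% (9.46 to 11.4), at a median GC content of 49.5%. Proximal TCF7L2 peaks without ARID1B had them in 9.63% (8.10 to 11.4) and 28.7% (26.3 to 31.3), at 58.5%. Proximal TCF7L2 peaks with ARID1B had them in 8.58% (8.14 to 9.04) and 51.1% (50.3 to 52.0), at 66%. Proximal ARID1B peaks with TCF7L2 had them in 10.4% (9.95 to 10.9) and 47.2% (46.4 to 48.0), at 65%. Proximal peaks were not counted by GC content. With both lists cut at a −log10 p of 15, the E-box and GC-box shares were 29.7% (27.7 to 31.8) and 18.7% (17 to 20.5) in the proximal ARID1B class. They were 4.93% (3.91 to 6.21) and 55.7% (53.0 to 58.3) in the proximal TCF7L2 class. Of the 1847 ARID1B windows, 542 had no TCF7L2 peak in the full list, with shares of 42.6% (38.5 to 46.8) and 4.06% (2.70 to 6.07). Of the 1378 TCF7L2 windows, 32 had no ARID1B peak in the full list, with shares of 6.25% (1.73 to 20.1) and 53.1% (36.4 to 69.1).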

How the data were processed

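ChIP-seq peaks of ARID1B and TCF7L2 from E15.5 cortex were analyzed, with the E18.5 and FOXP1 lists as readouts not used for the classes. According to the methods and processing notes, the authors aligned reads to GRCm38 with BWA (0.7.15), kept mapping quality of at least 30, called peaks against matched input with MACS2 (2.2.7) at a q-value of 0.01 without local background, and merged replicates after a reproducibility check. The sources used here do not say how duplicates were treated. The deposited lists hold a score (not used), the fold enrichment ratio over input, and −log10 p and −log10 q values. Read depth was recovered from the tie between fold and p.

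Peaks on chromosomes 1 to 19 were classed by an overlap of at least 1 base. Proximal peaks overlapped the 2000 bp upstream of a GENCODE vM21 TSS. Shared loci were ranked by lowest p. Motifs were counted as exact letters (CTCF and RFX3 with mismatches) in 200 bp windows, and in 47914 evenly spaced genome windows, and annotation classes were also read at 49256 evenly spaced positions. Named genes were the exclusive members of each list, then those with the lowest p, the 8 largest rank differences each way, and the 6 genes or peaks leading each exclusive class. Members and lists were chosen with earlier results of these data known. With 1 list per TR and stage, taken to be the merged one, no test was run. Shares carry 95% Wilson intervals. Python (3.11.15), NumPy (2.4.6), pandas (2.3.3), SciPy (1.17.1), and pysam (0.24.0) were used, and the overlap and rank code was tested on simulated data. Alternatives covered overlap, p threshold, list length, promoter definition, ranking, and window size. Results for some listed genes are not reported here.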

Additional observations from a re-analysis of the deposited data

Results flagged for a closer look

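Peaks outside chromosomes 1 to 19 were in no comparison. There were 733 such ARID1B peaks and 463 such TCF7L2 peaks, a signal in data that the classes left out. On chromosome X, 302 of 686 ARID1B peaks had TCF7L2 and 294 of 398 TCF7L2 peaks had ARID1B, with highest folds of 10.2 and 11.4.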

How the results depend on the processing

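No paired analysis was possible because there is 1 list per TR and stage, taken to merge both replicates, and no replicate could be left out. Counts and shares moved with the peak threshold, and the order of the exclusive gene classes turned. The majority of each class without the other TR at E18.5 turned with both lists cut at a −log10 p of 15. That of the TCF7L2 class also turned with the ARID1B list cut to the size of the TCF7L2 list. Cutting the other list moves a peak or gene into an exclusive class when its partner is weaker than the cut. ARID1B peaks without TCF7L2 (42078) numbered 16577 with both lists cut at a −log10 p of 15, 9950 with that cut on the classified list alone, and 13011 with the ARID1B list cut to the size of the TCF7L2 list. TCF7L2 peaks without ARID1B (3397) numbered 1872, 64, and 11455 under these cuts, and 1586 with near misses left out. The proximal share of the ARID1B class (9.37%) was 11.1%, 5.45%, 5.64%, and 7.21% under the same 4 settings, 10.0% with 50% overlap, 10.0% with promoters within 1000 bp, and 4.32% with protein-coding TSSs. That of the TCF7L2 class (35.8%) was 73.8%, 51.6%, 41.8%, and 31.5%, then 46.7% and 22.9% for the promoter definitions. That of shared loci (53.2%) was 78.3% with both lists cut at that p, 55.9% at equal size, and 56.1% and 45.6% for the promoter definitions. E18.5 TCF7L2 at the ARID1B class (25.5%) was 58.3%, 33.0%, 31.1%, and 22.6%, and 26.9% with 50% overlap. E18.5 ARID1B at the TCF7L2 class (25.7%) was 94.8%, 42.2%, 63.0%, and 22.4%, and 32.6% with 50% overlap. Genes with ARID1B only (686) numbered 154 at equal size, and genes with TCF7L2 only (322) numbered 1116 with both lists cut at that p and 2113 at equal size. The rank correlation was 0.726 and 0.420 (proximal and distal) with promoters within 1000 bp, and 0.519 and 0.251 over the strongest peaks. The E-box share of the distal classes (35.6% and 13.3%) was 22.9% and 7.25% in 100 bp windows and 46.1% and 9.20% with both lists cut at that p. Depth and antibody differ between the lists, and their part was not tested.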
